A study of Mus musculus with 6 samples.

Results

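The genes described here encode proteins of the lysosomal membrane, the carriers that bring enzymes to the lysosome, and the proteins that position lysosomes in the cell. They were 34 of the 27179 genes in the count table, taken by matching gene symbols to a list. That list was chosen with earlier results of these data known. By role they were 7 structural and other membrane proteins, 17 transporters and channels, 6 enzyme sorting genes and 4 positioning genes. The RNA came from embryonic stem cells of the mouse (mESCs), which are pluripotent and were grown on gelatin in medium with serum and the cytokine LIF. Cells of both groups expressed Tfe3-ERT2, the transcription factor Tfe3 fused to an estrogen receptor domain that binds 4-hydroxytamoxifen. The 4OHT group received 4-hydroxytamoxifen at 1 µg/mL for 48 h, which moves the fusion into the nucleus (3 libraries), and the EtOH group received the ethanol vehicle (3 libraries). Cells without the fusion that were given 4OHT are not among these groups, so an effect of 4OHT itself and an effect of nuclear Tfe3 cannot be told apart. The labels do not say which promoter drives the fusion, whether the line is a clone, or whether each library had its own culture. The p-values therefore reflect library-to-library spread alone, which may be technical.

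The lysosome is the acidic compartment in which cells digest material taken up from outside or delivered by autophagy. Its membrane carries heavily glycosylated proteins that line its inner face, exporters that release the products of digestion, and ion channels that set its chemistry. Newly made hydrolases are tagged with mannose 6-phosphate in the Golgi and carried to endosomes by mannose 6-phosphate receptors. Small GTPases of the Arl8 family couple lysosomes to kinesin motors and so move them towards the cell edge. Tfe3 and its relatives of the MiT/TFE family are known for binding E-box motifs near lysosomal genes in mammals.

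Total counts were between 4648374 and 6427880 in the 4OHT libraries and between 4092877 and 4984364 in the EtOH libraries, so that 3 counts in a library corresponded to between 0.467 and 0.733 CPM, a floor that covers counting error only. CPM are counts scaled to a common library size, with sizes adjusted by TMM factors. Tfe3 itself averaged 831.7 ± 4.34 CPM in 4OHT and 1038 ± 35.1 CPM in EtOH (SD, n = 3 each). That level does not check the labels, because 4OHT acts on the location of the fusion protein and the counts do not separate its transcript from that of the gene itself. The 10 markers of mESCs were all measured and summed to between 5313 and 5348 CPM in 4OHT and between 5176 and 5298 CPM in EtOH, with 4 higher and 3 lower in 4OHT. Some markers of other cells moved with treatment. All 7 tested of 10 trophectoderm markers were higher, with sums of 989.8 to 1026 CPM in 4OHT and 462.3 to 485.2 CPM in EtOH. Most of these sums came from Krt8 (489.5 CPM in 4OHT and 219.5 CPM in EtOH) and Krt18 (370.8 CPM in 4OHT and 160.7 CPM in EtOH). The lineage factors Eomes (log2 1.39), Gata3 (log2 1.17) and Hand1 (log2 2.56) were also among the 7, at means of 13.09, 7.925 and 8.957 CPM in 4OHT. Cdx2 (1.54 CPM in 4OHT and 2.25 CPM in EtOH) and Elf5 were too low to test. Of 10 primitive endoderm markers 5 were tested and only Col4a1 was called (sums of 320.3 to 339.7 CPM in 4OHT and 224.2 to 224.6 CPM in EtOH), with Afp at 0 in every library. The 10 fibroblast markers (4 tested, 0 called; Lum at 0 in every library) summed to 22.57 to 27.80 CPM in 4OHT and 17.12 to 26.57 CPM in EtOH. The part of such markers in the results was not tested.

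Of the 33 genes of the set that had enough counts to test, 24 rose in 4OHT and 2 fell, and the remaining 7 did not pass (edgeR's quasi-likelihood test, Benjamini-Hochberg adjusted p below 0.05 over all genes). Over all 12345 tested genes, 21.4% were called higher and 20.6% lower. The median log2 fold change of the set was 0.40, against -0.00 over all tested genes, whose quartiles were -0.19 and 0.23. Rises were moderate: 10 genes rose at least 1.5-fold (7.84% of all tested genes did) and none of the set fell that far (4.29% of all tested genes did). The 3 libraries of each group did not overlap for 21 genes that were higher in 4OHT and 2 that were lower, where the shares over all tested genes were 25.1% and 23.7%. In bulk RNA, a change in how many cells of a kind are present and a change in RNA per cell cannot be told apart.

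By role, the share of risers was largest among transporters and channels, at 14 of 16 tested with a median log2 fold change of 0.58 and 0 lower. Among structural and other membrane proteins 4 of 7 rose and 0 fell, with a median of 0.33. Enzyme sorting was the only role with genes that fell, 2 of 6, beside 4 that rose, with a median of 0.33. Of the 4 positioning genes 2 rose and 0 fell, with a median of 0.40. DESeq2 called fewer, with 9 transporters and channels higher and 2 sorting genes higher and 0 lower. In the whole set it called 16 higher and 0 lower. Over all genes it also called fewer, with 1830 higher and 1623 lower, against 2643 and 2546 by edgeR. The difference between roles was not tested.

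**Figure D1:**
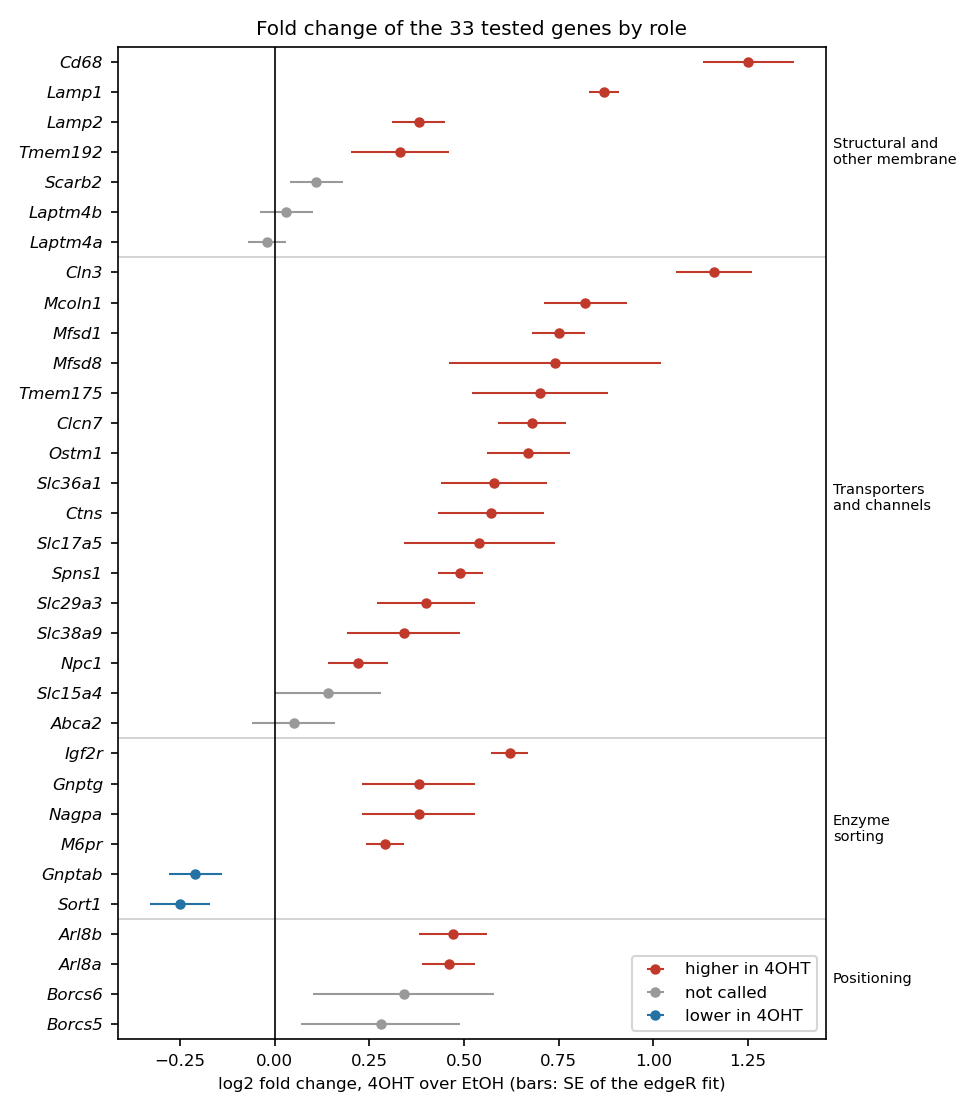
Log2 fold change (4OHT over EtOH) of the 33 tested genes, grouped by role and ordered within it, with bars for the SE of the edgeR fit. Red points passed the test as higher, blue as lower and grey points did not pass. Only Sort1 and Gnptab lie in blue, and Cd68 and Cln3 are the points beyond 1 on this axis.

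Summed over the 34 genes, expression was 2435, 2408 and 2366 CPM in the 4OHT libraries, against 1730, 1725 and 1713 CPM in the EtOH libraries. Every 4OHT library lay above every EtOH library, and the ratio of the means was 1.39. Lamp1 alone gave 42.5% of the summed difference and Igf2r 9.51%. Without Lamp1 the sums averaged 1765 ± 45.4 CPM in 4OHT and 1374 ± 17.2 CPM in EtOH (SD, n = 3 each), a ratio of 1.28. The ratio of summed CPM was 1.46 for structural and other membrane proteins, 1.47 for transporters and channels, 1.21 for enzyme sorting and 1.36 for positioning.

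**Figure D2:**
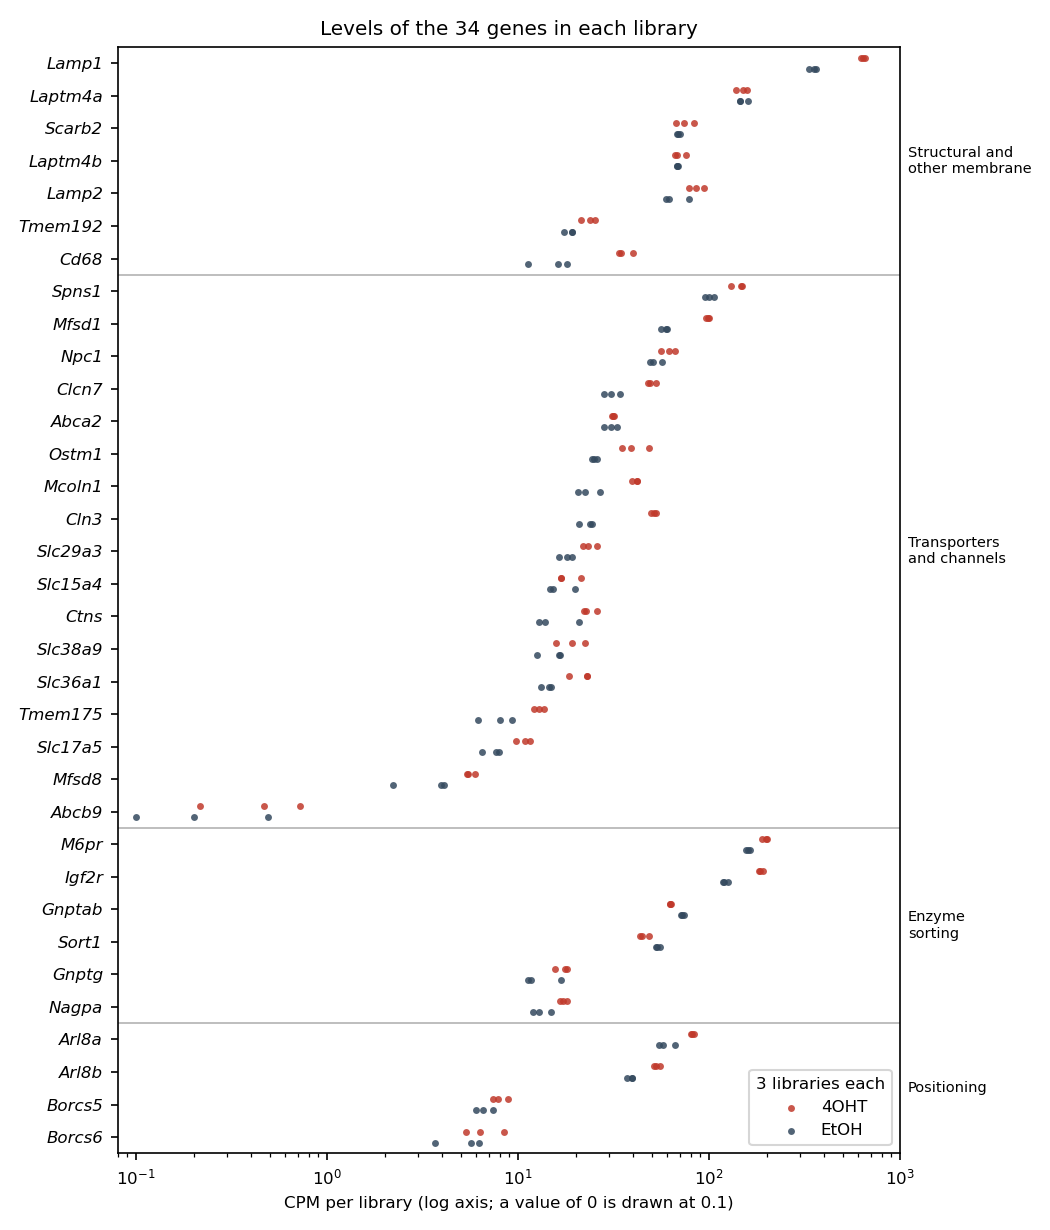
CPM of each of the 34 genes in each library on a log axis, grouped by role; red points are the 3 4OHT libraries and dark points below them the 3 EtOH libraries, and a value of 0 is drawn at 0.1. For Lamp1, Cln3, Mfsd1, Mcoln1 and Igf2r the red and dark points are clearly apart, while for Laptm4a, Laptm4b and Abca2 they lie over each other. Positions along the axis compare libraries within a gene, since CPM are not scaled to gene length.

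The promoters of the set, risers or not, were examined for the E-box CACGTG, a palindrome that reads the same on both strands. MiT/TFE factors are known to bind it, best with a T before it or an A after it. RefSeq promoter windows on GRCm38.p6, 250 bases before to 50 after each annotated start, were at hand for 29 of the 34 genes, 28 of them tested. CACGTG occurred in 7.15% of all 32851 windows and in at least 1 window of 12.2% of the 9635 tested genes that had a window. It occurred in 9 of the 28 tested genes of the set (32.1%), which were Lamp1, Mfsd1, Cln3, Mcoln1, Clcn7, Igf2r, Slc36a1, Nagpa and Gnptg. All 9 were called higher, with a median log2 fold change of 0.68 and a range of 0.38 to 1.16. Of the other 19, without the letters CACGTG, 12 were called higher and 1 lower, with a median of 0.38 and a range of -0.21 to 1.25. Over all tested genes with a window, 302 of the 1171 with CACGTG (25.8%) were called higher and 268 lower, with a median of 0.0. Of the tested genes without it, 21.1% were called higher. The longer form TCACGTG, searched on both strands and by its letters a part of the matches above, was in the same 9 genes, in 3.77% of all windows and in 7.27% of tested genes. Its palindromic form TCACGTGA was in 7 of them, in 0.974% of all windows and in 2.29% of tested genes. The related TCATGTG, searched on both strands and with another core, so that no match counts for both, was in the windows of Scarb2, Igf2r and Clcn7 and in 2.45% of tested genes (3.77% of all windows). A match is a description of the letters in the window, and no binding was measured here. The motif and the set were not chosen independently, since the motif is known from lysosomal genes, so the shares do not test a link between them.

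Most of the 9 had more than 1 E-box in the same window. At least 2 CACGTG were present in 8 of the 28 tested genes of the set (28.6%), in 131 of the 9635 tested genes with a window (1.36%) and in 195 of all 32851 windows (0.594%). Mfsd1 had 5, Lamp1 had 4, and Cln3, Mcoln1, Clcn7, Igf2r, Slc36a1 and Nagpa had 2 each, with first bases between -149 and 8 from the annotated start. The matches of Cln3 lie before an annotated start inside the gene, and the window at its outermost start held 0. Over all tested genes, 42.7% of those with at least 2 E-boxes, the 8 of the set included, were called higher and 16% lower. Of those with 1, 23.7% were higher and 23.8% lower, and of those with 0, 21.1% were higher and 20.2% lower. Cd68, the gene of the set with the largest rise, had no CACGTG in its window, which says only that these letters are absent from it. The stretches before the start site of 5 of the risers with several E-boxes are shown. The stretch of Clcn7 holds its E-box at -15, with another at 8 beyond it, and the other 4 stretches hold more than 1 E-box. Each stretch is from RefSeq (GRCm38.p6), 5′ to 3′ on the strand of the gene, with capitals for CACGTG and a T before or an A after it.
Mfsd1, chr3:67582642-67582767, plus strand: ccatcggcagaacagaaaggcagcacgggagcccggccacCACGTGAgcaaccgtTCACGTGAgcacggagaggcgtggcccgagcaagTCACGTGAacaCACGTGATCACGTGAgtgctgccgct
Lamp1, chr8:13159060-13159160, plus strand: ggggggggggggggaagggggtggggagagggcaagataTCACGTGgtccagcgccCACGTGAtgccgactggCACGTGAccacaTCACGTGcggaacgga
Mcoln1, chr8:3500408-3500486, plus strand: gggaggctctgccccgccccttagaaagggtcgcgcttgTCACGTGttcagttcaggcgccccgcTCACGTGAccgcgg
Igf2r, chr17:12769707-12769795, minus strand: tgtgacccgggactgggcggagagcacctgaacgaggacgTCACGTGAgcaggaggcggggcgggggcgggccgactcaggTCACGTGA
Clcn7, chr17:25133336-25133390, plus strand: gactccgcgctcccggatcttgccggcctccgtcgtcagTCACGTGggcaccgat

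**Figure D3:**
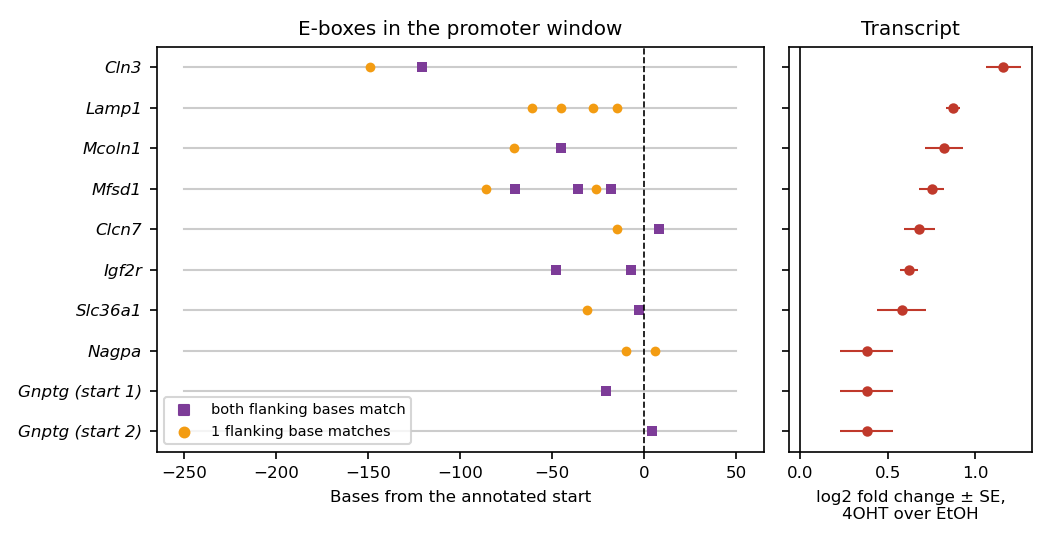
Left, positions of CACGTG in the promoter windows of the 9 genes, in bases from the annotated start (dashed line), with squares where both flanking bases match TCACGTGA and circles where 1 does. Right, log2 fold change (4OHT over EtOH) with its SE. Lamp1 and Mfsd1 hold clusters of 4 and 5 matches just before the start, and Gnptg has 2 annotated starts whose windows share a single E-box.

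Among the structural proteins, Lamp1, a major glycoprotein of the lysosomal membrane (chr8:13159161-13175338, GRCm38), had 620.3, 655.5 and 639.6 CPM in the 4OHT libraries and 363.1, 331.8 and 352.1 CPM in the EtOH libraries. The groups were far apart, and the rise was 1.83-fold (log2 0.87 ± 0.04 SE, adjusted p = 6.3e-63 by edgeR's quasi-likelihood test). It was also the most abundant gene of the set per length, at 647 ± 19.9 TPM (a unit scaled to gene length as well as library size, from the deposited lengths) in 4OHT and 347 ± 10.5 TPM in EtOH. Its fold change was larger than that of 96.1% of tested genes. Cd68, a member of the same protein family that is widely used as a macrophage marker (chr11:69664213-69666170), had 39.93, 34.63 and 33.90 CPM in 4OHT against 16.11, 11.30 and 17.96 CPM in EtOH. All 4OHT libraries lay above all EtOH libraries, and Cd68 had the largest fold change of the set, 2.38-fold (log2 1.25 ± 0.12 SE, adjusted p = 9.5e-19 by edgeR). Ranked by TPM among the 34 genes, it was at place 7 in 4OHT and at place 11 in EtOH.

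Because Cd68 is also used as a macrophage marker, the markers of that lineage were measured beside it. Of 16 macrophage markers 2 were tested and both were higher, Laptm5 at 185.1 CPM in 4OHT and 98.43 CPM in EtOH and Mrc1 at 10.27 CPM in 4OHT and 6.977 CPM in EtOH. The defining markers Adgre1, Tyrobp, Lyz2, C1qa, C1qb and C1qc were at 0 in all 6 libraries. Csf1r, a receptor that also defines the lineage, was too low to test, with 6, 2 and 7 counts in 4OHT and 1, 0 and 1 in EtOH, so that each 4OHT library lay above each EtOH library. Itgam, also too low to test, had a mean of 0.373 CPM in 4OHT and 1.13 CPM in EtOH. With Laptm5 and Mrc1 left out, the other 14 markers summed to 2.379 ± 0.833 CPM in 4OHT and 2.379 ± 0.105 CPM in EtOH (SD, n = 3 each), from 39 counts in 4OHT and 32 in EtOH. The whole list summed to between 184.6 and 206.7 CPM in 4OHT and between 103.1 and 113.8 CPM in EtOH.

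Lamp2, the paralog of Lamp1, an isoform of which is the receptor of chaperone-mediated autophagy, rose less, to 86.19 ± 7.62 CPM in 4OHT against 66.68 ± 10.3 CPM in EtOH (1.30-fold, adjusted p = 4.7e-06 by edgeR). Its groups barely separated, with a lowest 4OHT value of 78.81 CPM and a highest EtOH value of 78.44 CPM. Tmem192, a membrane protein used as a handle to isolate lysosomes, averaged 23.46 ± 1.87 CPM in 4OHT and 18.61 ± 0.986 CPM in EtOH (1.25-fold, adjusted p = 0.032 by edgeR). That call was lost without 4OHT replicate 1 (0.11), 4OHT replicate 3 (0.081), EtOH replicate 1 (0.060) or EtOH replicate 3 (0.11), within a range of adjusted p of 0.017 to 0.17 over all alternatives. The Tmem192 call was also lost by DESeq2 (0.17) and with upper quartile factors (0.057). Scarb2, the receptor that carries glucocerebrosidase to lysosomes, did not pass at 74.88 ± 8.26 CPM in 4OHT and 68.99 ± 0.995 CPM in EtOH (adjusted p = 0.23 by edgeR). The multispanning proteins Laptm4a and Laptm4b did not pass either, with log2 fold changes of -0.02 ± 0.05 and 0.03 ± 0.07 SE. Both were abundant, since Laptm4a stood at place 3 of the set by TPM in both groups, with 160 TPM in 4OHT and 158 TPM in EtOH.

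Cln3, whose human counterpart is mutated in juvenile Batten disease and which serves the export of glycerophosphodiesters, had the largest rise among transporters and channels (chr7:126571207-126585817). It had 51.44, 52.66 and 49.51 CPM in the 4OHT libraries, against 20.74, 24.41 and 23.86 CPM in the EtOH libraries. No library of either group came near those of the other, and the rise was 2.23-fold (log2 1.16 ± 0.10 SE, adjusted p = 3.1e-23 by edgeR). Of its exon bases 7.65% are shared with Apobr on the opposite strand, which had a log2 fold change of 1.98 (adjusted p = 3.5e-19). Mcoln1, the calcium release channel TRPML1 (chr8:3500519-3515232), had 41.89, 41.84 and 39.67 CPM in 4OHT and 22.35, 26.67 and 20.67 CPM in EtOH. Its groups were separate, with the 4OHT libraries nearly level, and it rose 1.76-fold (log2 0.82 ± 0.11 SE, adjusted p = 4.9e-12 by edgeR).

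Mfsd1, a dipeptide exporter and the gene with the most E-boxes in its window (chr3:67582768-67604231), had 98.75, 96.84 and 100.1 CPM in 4OHT against 60.02, 56.29 and 59.29 CPM in EtOH. Both groups were tight and apart, at 1.68-fold (log2 0.75 ± 0.07 SE, adjusted p = 3.2e-21 by edgeR). Glmp, the glycoprotein that protects Mfsd1 from degradation, is not in the set of 34 and was higher by much the same factor, with 95.58 ± 6.74 CPM in 4OHT and 59.56 ± 2.50 CPM in EtOH (1.60-fold, adjusted p = 1.3e-17). Clcn7 and its partner Ostm1 likewise rose by equal factors. Clcn7, the lysosomal chloride-proton exchanger (chr17:25133378-25162103), had 47.96, 52.84 and 48.89 CPM in 4OHT and 34.24, 30.74 and 28.29 CPM in EtOH. Ostm1, its beta subunit (chr10:42678916-42702462), had 48.18, 38.77 and 34.99 CPM in 4OHT and 25.78, 25.09 and 24.36 CPM in EtOH. Neither gene's groups overlapped, although the 4OHT libraries of Ostm1 were spread out and its EtOH libraries were nearly level. The rise was 1.60-fold for each, with adjusted p = 1.0e-10 for Clcn7 and 1.1e-08 for Ostm1 by edgeR's quasi-likelihood test.

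Tmem175, a proton-activated potassium channel that also leaks protons (chr5:108629779-108647770), had 13.67, 12.08 and 12.81 CPM in 4OHT and 8.056, 9.268 and 6.151 CPM in EtOH. The groups did not overlap, at 1.63-fold (log2 0.70 ± 0.18 SE, adjusted p = 7.6e-04 by edgeR). Of its exon bases 35.3% are shared with Dgkq on the opposite strand, which had a log2 fold change of 0.29 (adjusted p = 0.071). Mfsd8, mutated in another form of Batten disease in humans (chr3:40818065-40846880), was the lowest tested gene of the set per length, with 5.426, 5.951 and 5.467 CPM in 4OHT and 2.215, 4.069 and 3.936 CPM in EtOH. EtOH replicate 1 was well below the other EtOH libraries, and the groups did not overlap (1.67-fold, log2 0.74 ± 0.28 SE, adjusted p = 0.025 by edgeR). Without EtOH replicate 1 its adjusted p was 0.23 and without 4OHT replicate 2 it was 0.061, within a range of 0.020 to 0.23 over all alternatives. DESeq2 did not call Mfsd8 either (0.17).

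Other exporters rose by smaller factors. Ctns, the cystine exporter, averaged 23.53 ± 1.99 CPM in 4OHT and 15.83 ± 4.34 CPM in EtOH (1.48-fold, adjusted p = 2.2e-04 by edgeR). Slc36a1, a proton-coupled amino acid exporter, averaged 21.45 ± 2.61 CPM in 4OHT and 14.18 ± 0.943 CPM in EtOH, with a log2 fold change of 0.58 ± 0.14 SE that lay just under the 1.5-fold line (adjusted p = 2.7e-04). Spns1, which exports lysophospholipids, was the most abundant of the transporters per length, with 116 ± 6.79 TPM in 4OHT and 80.9 ± 4.04 TPM in EtOH (1.41-fold, adjusted p = 8.5e-15). These 3 calls were kept in all alternative fits.

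For 4 other transporters the call was less certain: it was lost by DESeq2 and when certain single libraries were left out. Slc17a5, the sialic acid exporter, averaged 10.67 ± 0.919 CPM in 4OHT and 7.328 ± 0.778 CPM in EtOH (1.45-fold, adjusted p = 0.019 by edgeR), with adjusted p = 0.060 without 4OHT replicate 1 and 0.11 without EtOH replicate 1 (range 0.017 to 0.14 over all alternatives). Slc29a3, a nucleoside transporter, averaged 23.64 ± 2.03 CPM in 4OHT and 17.83 ± 1.46 CPM in EtOH (1.32-fold, adjusted p = 0.0075 by edgeR), and had 0.067 without EtOH replicate 1 (range 0.0045 to 0.082). For Npc1, which moves cholesterol out of the lysosome, means were 61.38 ± 5.08 CPM in 4OHT and 52.15 ± 3.76 CPM in EtOH, with overlapping groups (1.16-fold, adjusted p = 0.018 by edgeR). Its adjusted p was 0.12 without 4OHT replicate 1, 0.063 without EtOH replicate 2 and 0.099 without EtOH replicate 3 (range 0.0048 to 0.13). Slc38a9, an arginine sensor upstream of mTORC1, also had overlapping groups, at 19.09 ± 3.24 CPM in 4OHT and 15.08 ± 2.25 CPM in EtOH (1.27-fold, adjusted p = 0.049 by edgeR). It was the call nearest to the threshold, lost without 4OHT replicate 1 (0.26), 4OHT replicate 3 (0.099) or EtOH replicate 1 (0.34), with a range of 0.011 to 0.34. With all 6 libraries kept it was also lost with each other scaling, filter or tool tried and with the replicate block, with adjusted p between 0.051 and 0.24.

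Slc15a4, a histidine and peptide transporter, and Abca2, a lipid transporter, did not pass, with log2 fold changes of 0.14 ± 0.14 and 0.05 ± 0.11 SE (adjusted p = 0.45 and 0.76 by edgeR). Abcb9, a peptide transporter, had 1, 4 and 3 counts in the 4OHT libraries and 1, 0 and 2 in the EtOH libraries. It was too low to test, and no direction can be read at this depth.

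The enzyme sorting genes split. Igf2r, the cation-independent mannose 6-phosphate receptor (chr17:12682406-12769706), had 184.7, 181.8 and 191.0 CPM in 4OHT, against 118.4, 125.9 and 119.1 CPM in EtOH. The groups were far apart, at 1.54-fold (log2 0.62 ± 0.05 SE, adjusted p = 1.6e-25 by edgeR). M6pr, the cation-dependent receptor, was the more abundant of the receptors per length, with 201 ± 3.29 TPM in 4OHT and 162 ± 0.574 TPM in EtOH, and rose 1.22-fold (adjusted p = 6.2e-08). Sort1, which encodes sortilin, a carrier that works without mannose 6-phosphate (chr3:108283974-108361519), had 48.18, 43.46 and 44.67 CPM in 4OHT and 52.97, 53.57 and 55.60 CPM in EtOH. Every 4OHT library lay below every EtOH library, and the fall was 1.19-fold (log2 -0.25 ± 0.08 SE, adjusted p = 0.0089 by edgeR).

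The enzymes that make the mannose 6-phosphate tag also differed in direction. Gnptab, which encodes the catalytic subunits of the phosphotransferase (chr10:88379134-88447324), had 63.37, 62.58 and 62.01 CPM in 4OHT and 72.30, 73.47 and 71.10 CPM in EtOH. The groups were tight and did not overlap, and the fall was 1.16-fold (log2 -0.21 ± 0.07 SE, adjusted p = 0.014 by edgeR). By TPM it stood at place 19 of the 34 genes in 4OHT and at place 12 in EtOH. DESeq2 did not call either fall, with adjusted p = 0.10 for Gnptab (range 0.0035 to 0.10 over all alternatives) and 0.089 for Sort1 (range 0.0026 to 0.089).

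Gnptg, the gamma subunit of the same phosphotransferase, and Nagpa, which uncovers the tag, were called higher with less certainty. Gnptg averaged 17.02 ± 1.32 CPM in 4OHT and 13.24 ± 3.03 CPM in EtOH, with groups that overlapped through EtOH replicate 3 (1.30-fold, adjusted p = 0.037 by edgeR). Nagpa averaged 17.23 ± 0.690 CPM in 4OHT and 13.23 ± 1.51 CPM in EtOH (1.30-fold, adjusted p = 0.035). The Gnptg call was lost without 4OHT replicate 1 (0.079), 4OHT replicate 3 (0.13), EtOH replicate 1 (0.20) or EtOH replicate 2 (0.19), with a range of 0.0063 to 0.22 over all alternatives. Nagpa was lost without 4OHT replicate 1 (0.054), 4OHT replicate 3 (0.11), EtOH replicate 2 (0.14) or EtOH replicate 3 (0.089), with a range of 0.025 to 0.19. Both calls were also lost by DESeq2 (0.22 for Gnptg and 0.19 for Nagpa) and with upper quartile factors (0.060 and 0.056). The count of sorting genes that rose was 2 instead of 4 without 4OHT replicate 1, 4OHT replicate 3 or EtOH replicate 2. Of the exon bases of Gnptg 49.5% are shared with Unkl on the opposite strand, which had a log2 fold change of -0.29 (adjusted p = 0.12).

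Both Arl8 GTPases rose. Arl8a averaged 81.79 ± 1.60 CPM in 4OHT and 59.50 ± 5.97 CPM in EtOH (1.37-fold, adjusted p = 1.4e-08 by edgeR), and Arl8b averaged 53.38 ± 2.05 CPM in 4OHT and 38.58 ± 1.32 CPM in EtOH (1.39-fold, adjusted p = 1.2e-06). Neither gene's groups overlapped. The subunits of BORC, the complex that recruits Arl8 to lysosomes, were low and did not pass: Borcs5 had a log2 fold change of 0.28 ± 0.21 and Borcs6 of 0.34 ± 0.24 SE (adjusted p = 0.31 and 0.27 by edgeR). Of the exon bases of Borcs6, 41.2% are shared with a gene model on the opposite strand.

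Other genes with the same roles were counted from lists made by role. Of 41 other lysosomal membrane proteins 38 were tested, and 21 rose and 3 fell, with a median log2 fold change of 0.35. The 21 were 55.3% of those tested, where 21.4% of all tested genes were higher and 20.6% lower. Slc17a9, a vesicular nucleotide transporter, rose 2.91-fold, with 52.02 ± 2.58 CPM in 4OHT and 17.86 ± 1.32 CPM in EtOH (adjusted p = 4.2e-33 by edgeR). Litaf, a membrane protein of late endosomes, rose 1.62-fold to 120.1 ± 12.7 CPM in 4OHT, against 74.45 ± 3.74 CPM in EtOH. Tmem63a, a mechanosensitive channel, fell, with 11.35 ± 1.26 CPM in 4OHT and 27.00 ± 0.918 CPM in EtOH (log2 -1.25, adjusted p = 2.2e-15). Tmem165, a cation transporter of the Golgi, fell by less (log2 -0.28, adjusted p = 1.9e-04), as did Ttyh3 (log2 -0.33, adjusted p = 0.0085). The Ttyh3 call was lost by DESeq2 (0.13) and without 4OHT replicate 3 (0.11), EtOH replicate 1 (0.085) or EtOH replicate 2 (0.067), with a range of 0.0017 to 0.13.

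Of 37 other enzyme sorting genes 35 were tested, 17 rose and 1 fell, with a median log2 fold change of 0.25. The 17 were 48.6% of those tested, where 21.4% of all tested genes were higher and 20.6% lower. Of 6 listed subunit genes of AP-3, the adaptor that carries membrane proteins to lysosomes, 3 were called higher, among them Ap3d1 by 1.38-fold (179.5 ± 5.59 CPM in 4OHT and 129.6 ± 7.57 CPM in EtOH, adjusted p = 2.1e-16 by edgeR) and Ap3b1 by 1.32-fold. The other 3 did not pass, with log2 fold changes of -0.06 for Ap3m1, -0.18 for Ap3s1 and -0.16 for Ap3s2. The gene that fell was Ap1s3, a small subunit of the adaptor AP-1 (8.948 ± 1.30 CPM in 4OHT and 15.20 ± 1.59 CPM in EtOH, adjusted p = 8.1e-05). Without 4OHT replicate 3 the count of falls was 2, and DESeq2 called 11 higher.

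Of 38 other positioning genes 36 were tested, and 8 rose and 5 fell, with a median log2 fold change of 0.06. The 8 were 22.2% of those tested, near the 21.4% of all tested genes, and 20.6% of all tested genes were lower. The called risers with the smallest p were Spag9, an adaptor between motors and lysosomes (1.83-fold, 112.8 ± 4.04 CPM in 4OHT and 61.86 ± 4.27 CPM in EtOH), Plekhm1, a tether for fusion with autophagosomes (1.37-fold), and Lamtor1, the membrane anchor of Ragulator (1.33-fold). Among the falls were the kinesin heavy chain Kif5a, with 16.84 ± 2.97 CPM in 4OHT and 26.13 ± 2.05 CPM in EtOH (log2 -0.66, adjusted p = 5.9e-06 by edgeR), and the dynein light intermediate chain Dync1li1 (log2 -0.20, adjusted p = 0.0024). Kif5c fell too (log2 -0.34, adjusted p = 0.0040), a call lost by DESeq2 (0.069) and without EtOH replicate 3 (0.11), with a range of 0.00032 to 0.11. Kif5b, the most abundant Kif5 gene, did not pass, with 329.9 ± 18.7 CPM in 4OHT and 332.6 ± 13.5 CPM in EtOH (adjusted p = 0.88 by edgeR). The count of falls was 3 without EtOH replicate 3 and 2 by DESeq2.

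**Figure D4:**
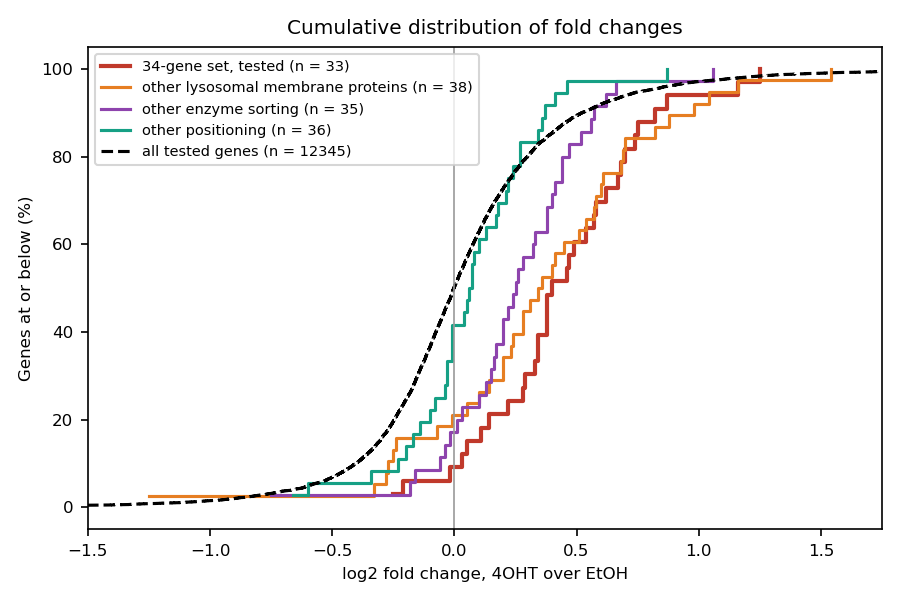
Cumulative share of genes (vertical axis, percent) at or below each log2 fold change (4OHT over EtOH, horizontal axis) for the 33 tested genes of the set, the 3 lists of other genes and all 12345 tested genes. The line of the set and that of the other lysosomal membrane proteins lie to the right of the dashed line of all genes over most of the range, with medians of 0.40 and 0.35, while the line of other positioning genes has a median of 0.06.

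Overlapping gene models limit what some counts can show. In GENCODE vM21, 14 of the 34 genes share exon bases with a model on the opposite strand, 3 of them at least 20% (Gnptg, Borcs6 and Tmem175), and 0 with a model on the same strand. The strand setting of the counting is not given in the sources used here, and without it reads of such pairs cannot be told apart. For Lamp1 the overlap was 9.31%, with Grtp1, which had a log2 fold change of 0.45 (adjusted p = 1.0e-06 by edgeR).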

How the data were processed

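Per the labels' protocols, 6 stranded mRNA libraries were made from total RNA. The authors deposited raw read counts for each gene in each library, together with gene lengths in bases. The submitters' processing notes list fastp, STAR, featureCounts and mm10, without roles; the sources used here do not give versions, annotation or strand setting. Of the 27179 genes, 1314 had no symbol (0.411% to 0.478% of a library's counts) and stayed in the tests.

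Genes were kept by filterByExpr (minimum count 10, total 15; 12345 genes), scaled by TMM factors (0.994 to 1.012) and compared with edgeR 4.0.16's robust quasi-likelihood test in R 4.3.3, with treatment as the only term. P-values were adjusted over those 12345 genes by Benjamini-Hochberg, and 0.05 was the threshold. SEs were taken as |log2 fold change| over the root of the F statistic. The steps were also run on simulated counts in which every gene had the same spread beyond counting error. That run does not cover genes that vary more between libraries. TPM were computed from counts and deposited lengths. Positions, symbols and promoters are from RefSeq for GRCm38.p6, matched by Entrez Gene identifier for all 34 genes. In E-box stretches shown, at most 30 bases lie in an exon of GENCODE vM21.

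The first principal component over all tested genes held 66% of the variance. Replicates differed by more than counting error in every pair. Alternatives were DESeq2 1.42.0, limma 3.58.1 (voom), other scaling factors and filters, a replicate block, each library left out, and stricter thresholds. Named beside the 34 genes were Tfe3, up to 3 risers and 3 falls with the smallest adjusted p from each list of other genes, and, beside a gene that overlaps them or as markers, a few genes chosen after their values were seen. A gene that this rule names is not reported here. The 34 genes, the lists and the rules were chosen with earlier results of these data known. Per-library values are given for genes called at least 1.5-fold higher or called lower. Summaries used pandas 2.3.3 and figures matplotlib 3.10.9, under Python 3.11.15.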

Additional observations from a re-analysis of the deposited data

How the results depend on the processing

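Of the 26 called genes of the set, 16 were called in each of 13 alternative fits, all of them higher in 4OHT: Lamp1, Lamp2, Cd68, Ctns, Mcoln1, Slc36a1, Clcn7, Ostm1, Cln3, Mfsd1, Tmem175, Spns1, M6pr, Igf2r, Arl8a and Arl8b. The other 10 were lost in at least 1. Over 429 comparisons of a gene with its value under another setting, 383 kept direction and call, 42 lost the call and 4 changed sign. The sign changes were in genes that had not passed: Laptm4a at 0.04 without 4OHT replicate 3 and 0.03 without EtOH replicate 1 (range with 1 library left out -0.05 to 0.04), Laptm4b at -0.03 without 4OHT replicate 2 (-0.03 to 0.08), and Abca2 at -0.02 without EtOH replicate 1 (-0.02 to 0.10). DESeq2 lost 10 calls and the left-out libraries 8 between them; the causes were not tested.

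At 1.5-fold, counts were 968 higher and 530 lower over all genes, 10 and 0 in the set, 2 higher among structural proteins, 7 among transporters, 1 higher and 0 lower in enzyme sorting, 0 higher in positioning, 11 higher and 1 lower among other membrane proteins, 3 higher in other sorting, and 1 higher and 2 lower in other positioning. DESeq2 gave 1830 higher and 1623 lower over all genes, and 16 higher and 0 lower in the set. By role it gave 9 transporters higher, and 2 sorting genes higher and 0 lower. In the lists of other genes it gave 11 higher in other sorting and 2 lower in other positioning. At an adjusted p below 0.01, 2070 genes were higher and 1903 lower over all genes, and the set had 17 higher and 1 lower. Enzyme sorting had 2 higher and 1 lower at that threshold. Upper quartile factors left 20 genes of the set higher, 2 of them sorting genes, and 2319 higher over all genes. With 1 library left out, genes of the set called higher ranged from 18 to 23, and risers over all genes from 2306 to 2544. Sorting genes higher then ranged from 2 to 4, falls in other sorting from 1 to 2 and falls in other positioning from 3 to 5. Falls in other sorting numbered 2 with DESeq2 size factors, with upper quartile factors and with the replicate block.

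Deviations from the group mean were nearly uncorrelated between libraries of the same replicate number (correlations of -0.020, -0.022 and -0.034). Counting error pulls such correlations towards 0, so they cannot show whether the libraries were paired. With the replicate block, 23 genes of the set were higher and 2 lower, and Slc38a9 lost its call (adjusted p = 0.052). Scaling moved the median of all genes by at most -0.04. Depth limits Abcb9, Mfsd8 and the BORC subunits, whose CPM were the lowest of the set. No alternative shows what 4OHT does without the fusion.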
